A study of Homo sapiens with 32 samples.

Results

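The knockdown of CSN5 (gene symbol COPS5) was compared between the prostate cancer line C4-2 and its parental line LNCaP, as the change with shCSN5 in C4-2 minus the change with shCSN5 in LNCaP. The members are 8 of the 32 libraries of the series, chosen by their labels: 2 with a scramble shRNA and 2 with shCSN5 in each line. LNCaP is a human line that depends on androgen, and C4-2 was derived from it and grows after castration, so both share an origin before and after castration resistance. The other 24 libraries are of other lines or of an inhibitor and did not enter the comparison. The cells are labelled as shRNA-infected prostate cancer cells from ATCC in standard culture. Titles give the same hairpin name to all 4 shCSN5 libraries, so 1 hairpin stands for the knockdown. No time after infection is given, and nothing in the labels says that the 2 libraries of a group came from separate cultures, so the p-values reflect no more than the spread among libraries. The LNCaP libraries were sequenced in project J and share a table with PC3, whereas the C4-2 libraries were sequenced in project L and share a table with 22Rv1. Each project holds only 1 of these lines, so no value of the difference could be had within a project, and project and line cannot be told apart. Each line's own change was taken within its project.

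CSN5 is the protease of the COP9 signalosome, a complex that strips the ubiquitin-like protein NEDD8 from cullins and so sets the activity of the cullin-RING ubiquitin ligases. Those ligases mark for degradation the licensing factor CDT1, cyclin-dependent kinase inhibitors, the NF-kB inhibitor encoded by NFKBIA and many other proteins. In dividing cells the S-phase genes are driven by E2F factors, and the genes of G2 and mitosis by the MuvB complex with B-MYB (MYBL2) and FOXM1. MuvB binds promoters through CHR elements, and many of these promoters also hold CCAAT elements, which are not its binding sites. p53 lowers both groups by way of p21 (CDKN1A).

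The promoters of 5 genes on which the cell-cycle and NF-kB results turn are shown from RefSeq, build GRCh38.p14, as the 250 bases before the annotated start, 5′ to 3′ on the gene's strand. CENPF (chr1:214602945-214603194, plus strand), PLK1 (chr16:23678639-23678888, plus strand) and MKI67 (chr10:128126424-128126673, minus strand) stand for the mitotic genes, with CHR (TTTGAA or TTCGAA) and CCAAT matches on either strand in capitals. MCM7 (chr7:100101398-100101647, minus strand) stands for origin licensing, with E2F (TTTCGCGC or TTTGGCGC) and CCAAT matches in capitals. NFKBIA (chr14:35404750-35404999, minus strand) stands for the NF-kB genes, with its match to the NF-kB letters (GGGA, 4 free letters, CC) in capitals. PLK1 and MKI67 were added after the values were seen, as mitotic genes picked because their window holds a CHR letter match. The CENPF window holds CCAAT matches and no CHR match. KIF2C, the other mitotic gene chosen by the rule for named genes, had no CHR, CCAAT or E2F match in its 250 bases and is not shown. DDIT4 and PHGDH, chosen by that rule for the list of ATF4 and the integrated stress response, had no ATF4 match (TGATGNAA, N any letter) and are not shown. TOP2A, picked in the same way as PLK1 and MKI67, held CHR and CCAAT matches and is not shown either.
CENPF: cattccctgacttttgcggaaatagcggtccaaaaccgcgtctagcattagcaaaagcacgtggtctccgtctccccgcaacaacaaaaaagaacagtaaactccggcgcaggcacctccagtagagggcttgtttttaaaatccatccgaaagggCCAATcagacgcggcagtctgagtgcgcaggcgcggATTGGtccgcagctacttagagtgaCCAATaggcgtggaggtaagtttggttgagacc
PLK1: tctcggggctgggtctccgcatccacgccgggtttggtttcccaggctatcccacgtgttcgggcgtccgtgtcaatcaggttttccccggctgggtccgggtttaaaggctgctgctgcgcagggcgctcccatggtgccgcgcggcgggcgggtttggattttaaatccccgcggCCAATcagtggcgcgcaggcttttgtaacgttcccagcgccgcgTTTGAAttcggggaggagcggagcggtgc
MKI67: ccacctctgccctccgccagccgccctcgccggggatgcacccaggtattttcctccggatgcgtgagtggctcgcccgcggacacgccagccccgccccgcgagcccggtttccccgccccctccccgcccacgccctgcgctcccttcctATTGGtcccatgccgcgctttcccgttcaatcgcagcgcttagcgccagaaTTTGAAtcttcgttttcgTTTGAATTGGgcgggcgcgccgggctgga
MCM7: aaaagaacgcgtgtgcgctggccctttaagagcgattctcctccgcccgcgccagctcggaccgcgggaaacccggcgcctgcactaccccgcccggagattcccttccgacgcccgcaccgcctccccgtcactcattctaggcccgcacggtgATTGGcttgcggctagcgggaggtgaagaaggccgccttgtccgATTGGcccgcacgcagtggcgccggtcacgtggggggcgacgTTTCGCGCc
NFKBIA: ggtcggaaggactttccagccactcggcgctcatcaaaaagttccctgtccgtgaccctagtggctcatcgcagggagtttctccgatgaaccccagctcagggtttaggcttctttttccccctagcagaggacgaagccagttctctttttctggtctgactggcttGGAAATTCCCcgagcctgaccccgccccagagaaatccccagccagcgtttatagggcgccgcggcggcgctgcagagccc
A match is a description of these letters and not a binding site. Over a window of 300 bases that also took in 50 bases after the start, a CHR match was found in 25 of the 33 mitotic genes with a promoter in the table (75.8%). Among all 11273 genes tested that had a promoter the share was 11%, and among all 27305 promoters it was 16.6%. A CCAAT match was found in 78.8% of the mitotic genes, in 37.0% of genes tested and in 35.7% of all promoters. Of 14 origin licensing genes 42.9% had an E2F match, against 2.0% of genes tested and 1.18% of all promoters. Of 17 NF-kB target genes 64.7% had the NF-kB letters, against 30.9% of genes tested and 25.1% of all promoters. In the MKI67 window a CHR match and a CCAAT match overlap.

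Levels are given as CPM, counts relative to the library total, which were scaled by edgeR's TMM factors in the tests. Library totals were 28.0 to 30.9 M counts in LNCaP and 23.4 to 26.2 M in C4-2. The luminal markers KLK3, KLK2, HOXB13, FOLH1, TMPRSS2, KRT8 and KRT18 were expressed in all 8 libraries, whereas KRT5, TP63, CHGA, COL1A2, DCN, PTPRC and CD3E had 1 to 3 counts in all 8 together. Other markers of basal, mesenchymal, neuroendocrine, fibroblast and leukocyte cells were detected: VIM at 5.93 to 24.3 CPM, COL1A1 at 2.39 to 16.8, SYP at 1.0 to 2.90, CD68 at 0.163 to 0.812 and KRT14 at 0.218 to 0.495. Their part in the results was not tested. In such bulk RNA, fewer cells of a type and less RNA per cell cannot be told apart. Within groups, the LNCaP shCSN5 libraries differed most, with a chi-square per gene of 65.2 against 1.77 between the LNCaP scramble libraries, 19.5 between the C4-2 scramble libraries and 5.81 between the C4-2 shCSN5 libraries. The libraries also differed by the GC content of transcripts: over 5 equal groups of genes from the lowest to the highest GC content, the median of C4-2 minus LNCaP scramble went from 0.90 to −0.70 on the log2 scale. The median of LNCaP shCSN5 replicate 2 minus replicate 1 went from −0.27 to 0.58. The median difference between the lines' changes was −0.01, −0.20, −0.01, 0.23 and 0.29 in these groups, so the counts of called list members are also given after a GC correction. Levels in the scramble libraries therefore differ between lines together with project and GC content, and only each line's change is compared below.

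**Figure D1:**
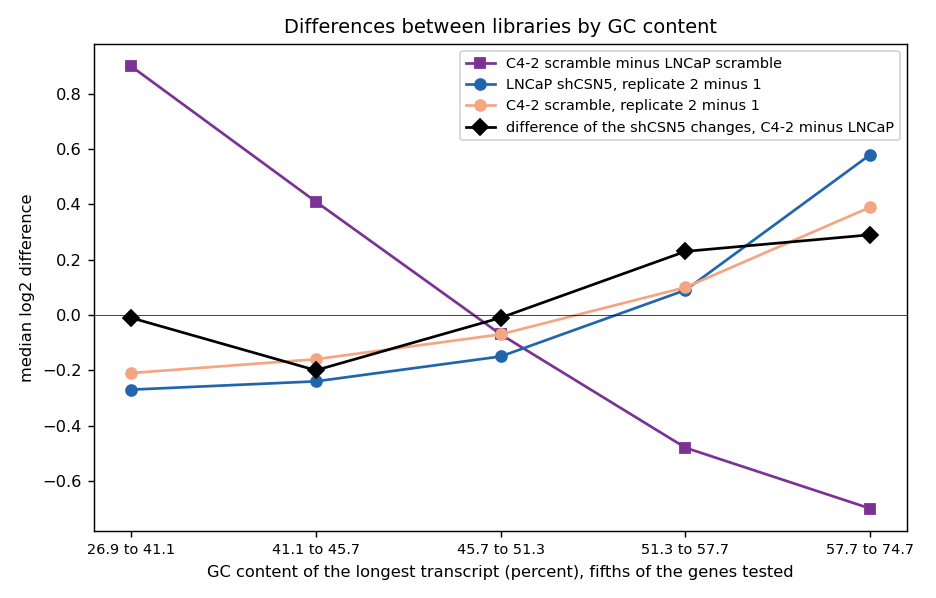
Medians over 5 equal groups of the tested genes by GC content of the longest transcript (x axis, percent) of log2 differences between libraries (y axis). The scramble libraries of the lines differ by 0.90 in the group of lowest GC and by −0.70 in the highest, while the difference of the shCSN5 changes runs from −0.20 to 0.29.

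COPS5 fell in both lines. Its level was 54.4 and 53.7 CPM in the LNCaP scramble libraries and 2.86 and 1.80 CPM with shCSN5. In C4-2 it was 128 and 114 CPM with scramble and 10.5 and 10.4 CPM with shCSN5. The shCSN5 libraries lay far below the scramble libraries in each line, and 4.32% of the LNCaP level and 8.64% of the C4-2 level remained. On the log2 scale the change was −4.53 ± 0.20 (SE, n = 2 libraries a group) in LNCaP and −3.53 ± 0.18 in C4-2. The difference of 1.0 ± 0.25 passed edgeR's quasi-likelihood test (Benjamini-Hochberg adjusted p = 0.039). The call ended with limma voom and without either C4-2 scramble library, either C4-2 shCSN5 library or either LNCaP scramble library. Its adjusted p then went up to 0.15 while the value stayed between 0.94 and 1.09 without 1 of those libraries. Whether the depth of the knockdown has a part in the differences below was not tested.

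Across the 15801 genes tested, the difference passed for 1913 (12.1%), called at a Benjamini-Hochberg adjusted p under 0.05 in edgeR's quasi-likelihood test. Of these, 1138 (7.2% of genes tested) had a C4-2 change above the LNCaP change and 775 (4.9%) a C4-2 change below it. A difference of at least 2-fold was called for 1026 genes (6.49%). In the same fit LNCaP's own change was called for 7086 genes (44.8%, with 21.7% higher and 23.1% lower). In C4-2 it was called for 4338 genes (27.5%, with 14.5% higher and 12.9% lower). These shares over all genes are the background for the counts of list members below. The share above among called differences was 59.5%. After the GC correction, chosen after seeing the data, 5219 of 15405 genes were called (33.9%, with 16.7% above and 17.2% below), so 49.4% of the calls were above. The count ranged from 638 to 4522 when 1 library was left out. It was 851 without C4-2 shCSN5 replicate 1, 938 without C4-2 shCSN5 replicate 2, 638 without LNCaP scramble replicate 1, 653 without LNCaP scramble replicate 2 and 4522 without LNCaP shCSN5 replicate 2. None of the 1913 genes changed sign under any alternative that tested it.

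Many changes had the same direction in both lines. Over all genes tested their Pearson correlation was 0.59 and Spearman's rank correlation 0.59, given as a description across genes, which share libraries and are not replicates. A change with the same sign was called in both lines for 2957 genes, of which 1521 rose (9.63% of genes tested) and 1436 fell (9.09%), and for 2065 of these the absolute change was larger in LNCaP. Over the 3127 genes called in both lines the median absolute log2 change was 1.06 in LNCaP and 0.82 in C4-2. Among the 1913 called differences, 379 genes fell in both lines and further in LNCaP, 8 fell in both and further in C4-2, 196 rose in both and further in LNCaP, and 44 rose in both and further in C4-2. Another 412 rose and 452 fell with a call in LNCaP alone, and 151 rose and 85 fell with a call in C4-2 alone. Calls with opposite signs in the lines were made for 170 genes (1.08%), of which 105 rose in C4-2 and fell in LNCaP. The remaining 16 had no call in either line.

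**Figure D2:**
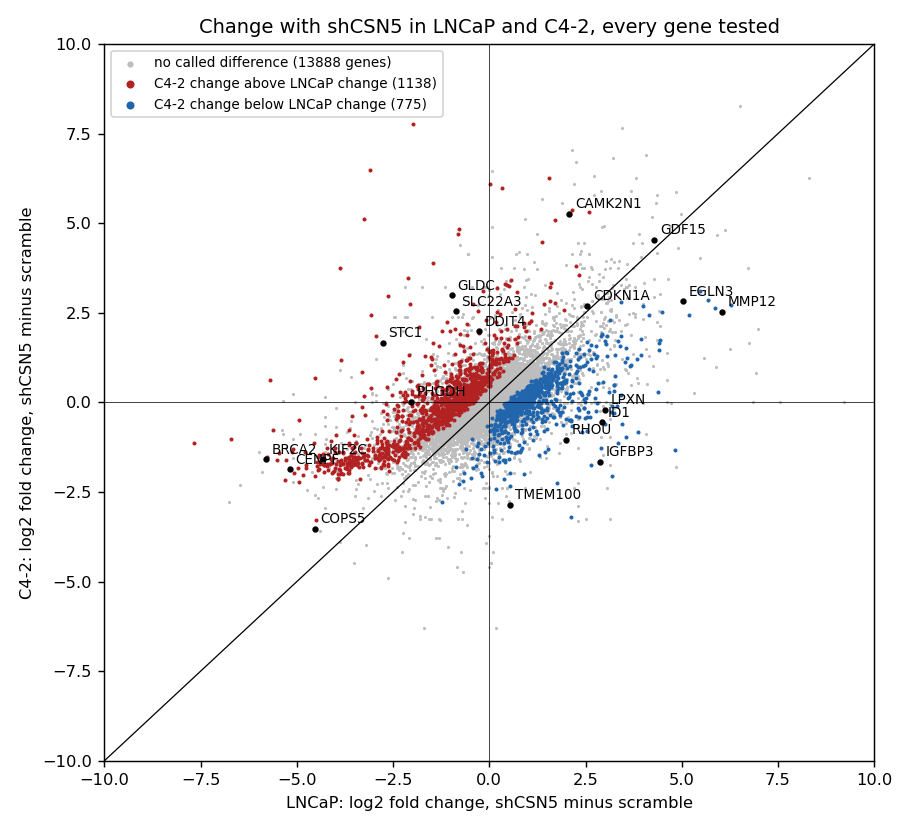
Log2 change with shCSN5 in LNCaP (x axis) and in C4-2 (y axis), 1 point per gene tested. Red marks the 1138 genes with a called difference above 0 and blue the 775 below 0; named genes are in black and the diagonal is an equal change. The 39 mitotic genes lie in the red area at the lower left, among 379 called genes that fell in both lines and further in LNCaP. The changes of the mitotic genes run to −5.51 in LNCaP and from −2.10 to −1.25 in C4-2.

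The clearest difference lay in the genes of G2 and mitosis, which fell in both lines and fell further in LNCaP. All 39 members of the spindle and kinetochore list fell in each line, and for all 39 the difference was called above 0, against 7.2% of all genes tested. The median change of the list was −3.90 in LNCaP and −1.62 in C4-2 on the log2 scale, beside −0.04 and 0.00 over all genes. The median difference was 2.05, beside 0.08 over all genes, and the differences ran from 1.11 for CDK1 to 4.04 for KNL1. The summed level of the list was 2451 and 2462 CPM in the LNCaP scramble libraries and 220 and 185 CPM with shCSN5. In C4-2 the sum was 5981 and 5368 CPM with scramble and 1830 and 1880 CPM with shCSN5. As a ratio to scramble, though not in CPM, the sum thus fell less in C4-2. The count of 39 stood after the GC correction and was 37 to 39 when 1 library was left out. These counts are not independent evidence, because the list was chosen with earlier results known.

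CENPF (ENSG00000117724), a large kinetochore protein whose promoter is shown above, had 61.4 and 59.1 CPM in the LNCaP scramble libraries and 1.78 and 1.51 with shCSN5. Its C4-2 levels were 291 and 248 CPM with scramble and 71.5 and 76.8 with shCSN5. The LNCaP shCSN5 libraries kept 2.74% of the scramble level and the C4-2 shCSN5 libraries 27.5%. The difference was 3.33 ± 0.18 (edgeR adjusted p = 0.00018). PLK1 (ENSG00000166851), a kinase of mitotic entry and exit, went from 88.6 and 89.2 CPM to 3.73 and 4.21 in LNCaP. In C4-2 it went from 111 and 132 CPM to 39.7 and 37.1, a difference of 2.82 ± 0.17 (edgeR adjusted p = 0.00023). MKI67 (ENSG00000148773), which encodes the proliferation antigen Ki-67, went from 207 and 212 CPM to 11 and 8.53 in LNCaP. Its C4-2 levels were 330 and 301 CPM with scramble and 114 and 113 with shCSN5, and the difference was 2.95 ± 0.17 (edgeR adjusted p = 0.0002). Scramble and shCSN5 libraries did not overlap in either line for any of these 3 genes, which were chosen for small p-values of the difference.

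KNL1, the kinetochore scaffold, had the largest difference of the list. It fell from 23.5 and 23.1 CPM to 0.689 and 0.360 in LNCaP and from 103 and 90.2 CPM to 35.2 and 37.2 in C4-2. KIF2C, a microtubule-depolymerising kinesin, fell from 71.1 and 75.9 CPM to 3.81 and 3.60 in LNCaP. In C4-2 it fell from 98.9 and 98.6 CPM to 32.7 and 32.8, a difference of 2.72 ± 0.14 (edgeR adjusted p = 0.00018). Among genes near the other end of the range, CCNB1 (cyclin B1) fell by 2.71 on the log2 scale in LNCaP and by 1.48 in C4-2, a difference of 1.23 ± 0.15. CDK1, its kinase, had the smallest difference of the list, and its call ended without LNCaP scramble replicate 1 (1.09, adjusted p = 0.056). TOP2A, AURKB, CENPE and UBE2C had called differences of 2.56, 3.42, 3.65 and 2.48, which kept their call in every alternative run.

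**Figure D3:**
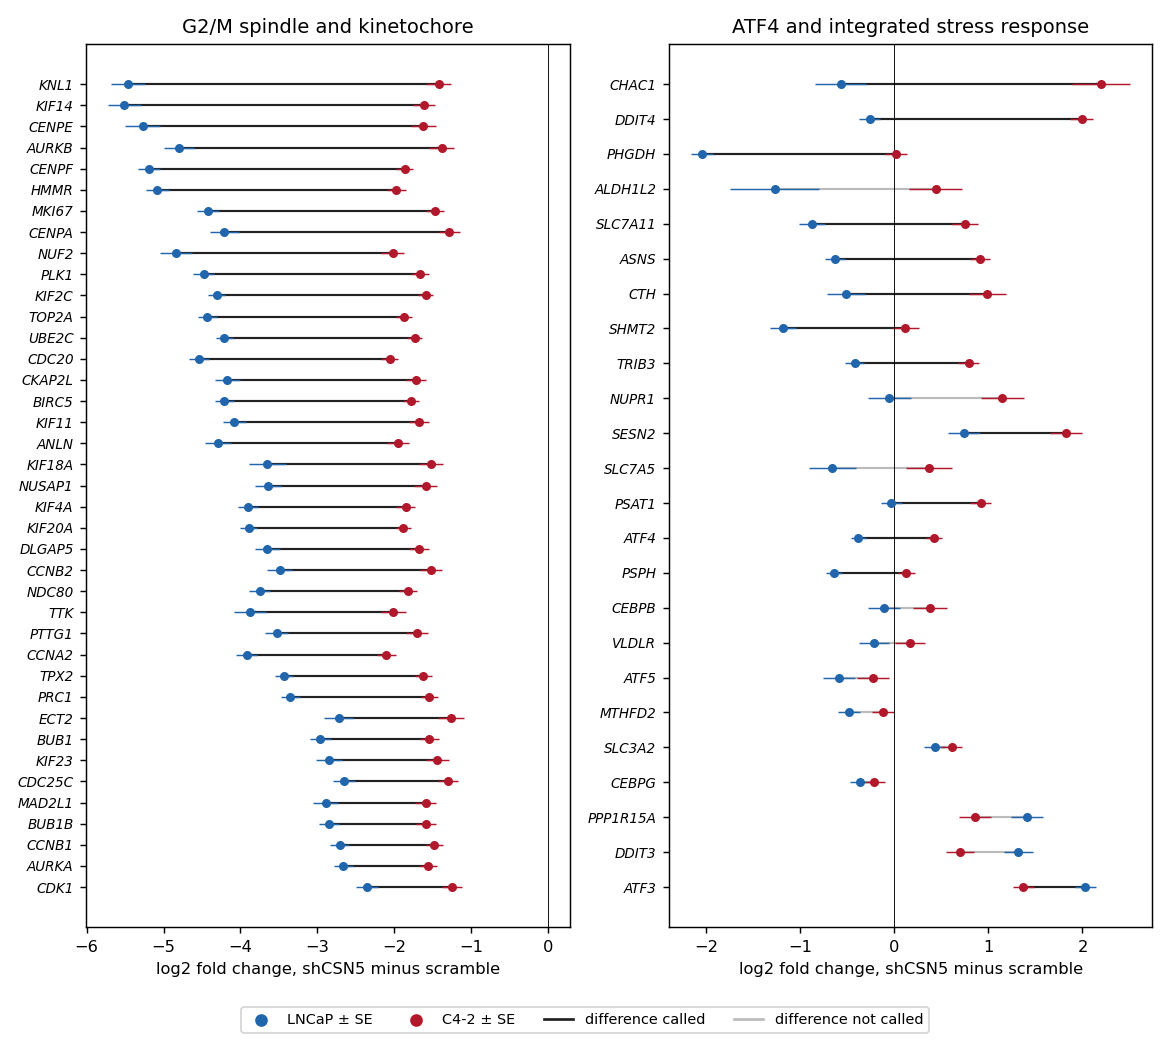
Log2 change with shCSN5 (x axis, ± SE) of each tested member of the mitotic list (left) and of the ATF4 list (right) in LNCaP (blue) and C4-2 (red), ordered by the difference. Black lines join changes whose difference was called; all 39 mitotic genes are left of 0 in both lines with LNCaP further left, and most ATF4 genes have C4-2 to the right of LNCaP.

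Several regulators of these programs fell further in LNCaP. Of the 20 members of the MuvB, E2F and pocket protein list, 12 fell in LNCaP and 11 in C4-2. The difference was called above for 7 and below for 0, beside 7.2% and 4.9% of all genes, with a median of 0.34. After the GC correction 10 were above and 3 below. MYBL2 (B-MYB) went from 183 and 179 CPM to 3.81 and 5.36 in LNCaP and from 133 and 176 CPM to 38.9 and 29.8 in C4-2. Its difference was 3.13 ± 0.29 (edgeR adjusted p = 0.00077). FOXM1 had 220 and 231 CPM with scramble and 20.6 in both shCSN5 libraries of LNCaP, and 197 and 202 CPM with scramble and 91.1 and 89.8 with shCSN5 in C4-2. Its difference was 2.31 ± 0.11 (edgeR adjusted p = 0.00018). E2F1 and E2F2, activators of S-phase genes, had differences of 2.07 ± 0.21 and 2.27 ± 0.20, and RBL1, which encodes the pocket protein p107, one of 1.56 ± 0.24. Each of these 5 genes lost more in LNCaP. RBL2, which encodes the pocket protein p130, rose by 1.01 ± 0.11 in LNCaP and by 0.42 ± 0.11 in C4-2, and its difference of −0.59 ± 0.16 was not called.

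Most origin licensing and replication genes fell in both lines too. Of 16 licensing genes 13 fell in LNCaP and 14 in C4-2. The difference was called above for 8 and below for 0, beside 7.2% and 4.9% of all genes (11 and 2 members after the GC correction). The median difference was 1.0, with a median change of −2.56 in LNCaP and −1.53 in C4-2. MCM7 (ENSG00000166508), a helicase subunit whose promoter is shown above, had 551 and 539 CPM with scramble and 79.9 and 83.9 with shCSN5 in LNCaP. In C4-2 it had 336 and 380 CPM with scramble and 131 and 119 with shCSN5. The difference was 1.22 ± 0.13 (edgeR adjusted p = 0.0016). MCM2 and CDC6, the latter a loader of that helicase, had differences of 1.73 ± 0.24 and 1.38 ± 0.16. CDT1, the licensing factor that cullin ligases degrade, fell in both lines, but its difference of 1.98 ± 0.68 was not called (edgeR adjusted p = 0.10) with LNCaP shCSN5 libraries far apart at 1.56 and 5.61 CPM. Without LNCaP shCSN5 replicate 2 it was called (3.19, adjusted p = 0.0045), and it was also called after the GC correction and when all 16 shRNA libraries shared the spread.

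Of 31 replication fork and nucleotide supply genes, 31 fell in LNCaP and 30 in C4-2. Their differences were called above for 20 and below for 0, beside 7.2% and 4.9% of all genes, with a median of 0.74. After the GC correction 27 were above and 0 below. The count was 11 without LNCaP scramble replicate 1 and also 11 without LNCaP scramble replicate 2. RRM2, a subunit of ribonucleotide reductase, fell from 198 and 201 CPM to 14.4 and 10.6 in LNCaP and from 335 and 287 CPM to 94.5 and 93.1 in C4-2. CDC45, a part of the replicative helicase, and FEN1, the flap endonuclease, had differences of 2.14 ± 0.22 and 1.48 ± 0.12. In each of the 3 genes the LNCaP change was the larger.

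Homologous recombination and Fanconi genes repair breaks and crosslinks in replicating DNA. Of 21 members 16 were called above and 0 below, beside 7.2% and 4.9% of all genes (19 and 0 members after the GC correction). The median change was −2.87 in LNCaP and −1.43 in C4-2. BRCA2, a recombination mediator, had 13.7 and 14.8 CPM with scramble and 0.218 and 0.288 with shCSN5 in LNCaP. Its C4-2 levels were 117 and 103 CPM with scramble and 36.2 and 37.3 with shCSN5. The difference was 4.21 ± 0.23 (edgeR adjusted p = 0.00018). BRCA1 and RAD54L had differences of 2.15 ± 0.18 and 2.75 ± 0.15. Among the lamina and chromatin genes, LMNB1 (lamin B1) fell from 197 and 199 CPM to 16.2 and 15.5 in LNCaP and from 266 and 231 CPM to 65.6 and 67.4 in C4-2. HMGB2, a chromatin protein, had a difference of 0.94 ± 0.13. That list of 12 had 3 called above and 0 below, and 7 without LNCaP shCSN5 replicate 2, 5 without LNCaP shCSN5 replicate 1 and 7 after the GC correction.

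Most p53 targets rose in both lines. Of 28 members 23 rose and 0 fell in LNCaP, and 26 rose and 1 fell in C4-2, beside 21.7% and 14.5% of all genes that rose. Their median change was 1.15 in LNCaP and 1.22 in C4-2. CDKN1A, which encodes p21, went from 313 and 316 CPM to 1701 and 1991 in LNCaP and from 183 and 209 CPM to 1321 and 1226 in C4-2. The rise was 5.87-fold and 6.49-fold, and the difference of 0.14 ± 0.15 had a 95% interval of −0.21 to 0.50. TP53I3, an oxidoreductase induced by p53, and ZMAT3, an RNA-binding target, had differences of 0.13 ± 0.18 and 0.08 ± 0.15. GDF15, a secreted stress cytokine, rose from 167 and 166 CPM to 2024 and 4510 in LNCaP and from 36.4 and 56.0 CPM to 1233 and 921 in C4-2. Its interval of −0.91 to 1.41 was wide, and the difference of 0.25 became 0.94 without LNCaP shCSN5 replicate 2. Differences were called for 3 of the 28 members, a share near the 12.1% of all genes: DDB2, a DNA damage sensor, and SESN2, a stress sensor shared with the ATF4 list, were above, and PLK2 was below. The calls above were 1 without C4-2 scramble replicate 2, either C4-2 shCSN5 library or either LNCaP scramble library, 4 without LNCaP shCSN5 replicate 2 and 5 without LNCaP shCSN5 replicate 1. The calls below were 5 without LNCaP shCSN5 replicate 2, and after the GC correction 7 were above and 5 below.

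PLK2, a polo-like kinase counted among p53 targets, was the member that fell in C4-2. It went from 40.4 and 45.4 CPM to 207 and 169 in LNCaP and from 34.0 and 29.2 CPM to 20.7 and 23.5 in C4-2. It rose in LNCaP by 2.13 ± 0.14 and fell in C4-2 by 0.51 on the log2 scale, a difference of −2.65 ± 0.20 (edgeR adjusted p = 0.00034). Other genes shared by the lines were EMP1, an epithelial membrane protein, with a rise of 9.12-fold in LNCaP and 9.22-fold in C4-2 and an interval of the difference from −0.35 to 0.38. RPIA, an enzyme of the pentose phosphate pathway, fell to 22.4% and 24.1% of its scramble level, with an interval of −0.36 to 0.57. In all, 1143 genes were called with one sign in both lines and had an adjusted p of the difference over 0.5, which does not show that they changed alike.

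The genes of the integrated stress response moved apart. ATF4 is the transcription factor of that response and drives genes of amino acid supply and its own feedback. In C4-2, 14 of 24 members rose and 0 fell, whereas in LNCaP 5 rose and 10 fell, beside 23.1% of all genes that fell in LNCaP. The difference was called above for 12 members and below for 1, which was ATF3, beside 7.2% and 4.9% of all genes. The median difference was 0.98. ATF4 itself fell from 524 and 529 CPM to 429 and 381 in LNCaP and rose from 294 and 289 CPM to 391 and 388 in C4-2. Its difference of 0.80 ± 0.12 (edgeR adjusted p = 0.0053) was not called after the GC correction (0.50, adjusted p = 0.076). Over the list the sum was 3638 and 3620 CPM with scramble and 2489 and 2662 with shCSN5 in LNCaP, and 2344 and 2422 with scramble and 3462 and 3383 with shCSN5 in C4-2. The sums thus fell in LNCaP and rose in C4-2, but abundant members such as PHGDH weigh most in a sum. After the GC correction 17 were above and 3 below, and the median difference was 0.75. The call of ATF3 ended without either C4-2 shCSN5 or either LNCaP scramble library.

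PHGDH, the first enzyme of serine synthesis, had 652 and 643 CPM with scramble and 146 and 170 with shCSN5 in LNCaP. In C4-2 it had 267 and 319 CPM with scramble and 308 and 284 with shCSN5. It fell to 24.4% in LNCaP, while the C4-2 libraries overlapped, and the difference was 2.05 ± 0.17 (edgeR adjusted p = 0.00041). DDIT4, an inhibitor of mTORC1 signalling, went the other way round, with 199 and 191 CPM to 146 and 180 in LNCaP and 34.8 and 38.4 CPM to 147 and 143 in C4-2. It rose 3.97-fold in C4-2, its LNCaP change was not called (−0.26 ± 0.11) and the difference was 2.25 ± 0.16 (edgeR adjusted p = 0.00031).

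ASNS, asparagine synthetase, fell from 227 and 229 CPM to 161 and 134 in LNCaP and rose from 161 and 144 CPM to 273 and 298 in C4-2. SLC7A11, the cystine transporter, fell from 71.5 and 74.9 CPM to 44.5 and 35.4 in LNCaP and rose from 128 and 104 CPM to 191 and 200 in C4-2. TRIB3, a pseudokinase that feeds back on ATF4, fell from 122 and 119 CPM to 83.1 and 97.1 in LNCaP and rose from 54.7 and 59.7 CPM to 102 and 95.6 in C4-2. All 3 had called changes of opposite sign, with differences of 1.53 ± 0.16, 1.63 ± 0.20 and 1.21 ± 0.15. CHAC1, a glutathione-degrading enzyme, rose 4.58-fold in C4-2, from 1.82 and 1.98 CPM to 10.1 and 7.30, and its LNCaP libraries had 16.4 and 14.5 CPM with scramble and 7.51 and 13.3 with shCSN5. GLDC, which cleaves glycine in mitochondria and was not on the list, fell from 12.9 and 14 CPM to 7.07 and 6.62 in LNCaP and rose from 1.21 and 0.537 CPM to 6.99 and 7.11 in C4-2. Its difference was 3.97 ± 0.36 (edgeR adjusted p = 0.00072), and 4.68 without C4-2 scramble replicate 1. DDIT3 and ATF3 both rose in each line. The difference of DDIT3, −0.61, was below 0 and not called (edgeR adjusted p = 0.096). It was called after the GC correction (−0.66) and when all 16 shRNA libraries shared the spread (−0.63). Without LNCaP shCSN5 replicate 2 it was −0.77.

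**Figure D4:**
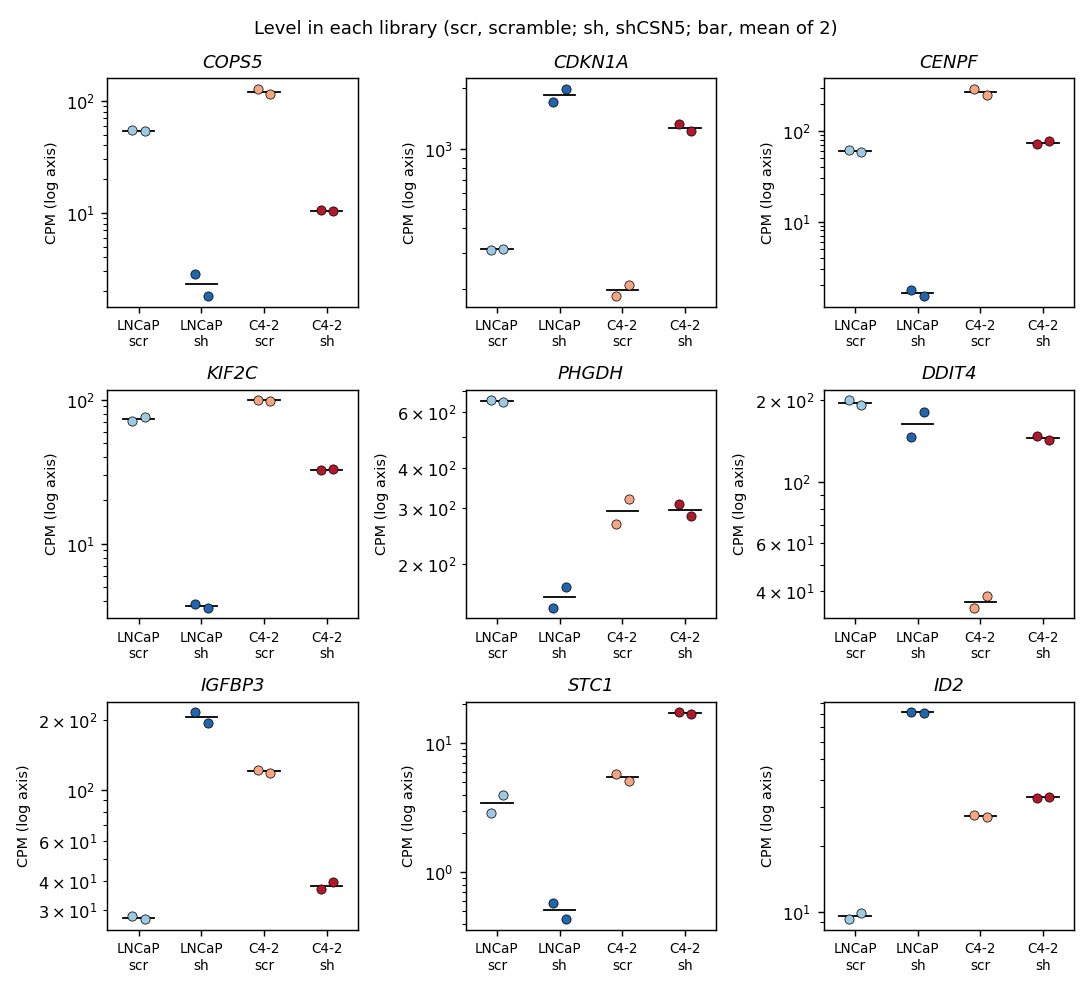
CPM on a log axis in each of the 8 libraries (points; bar, mean of the group's 2 libraries) for 9 genes named in the text. COPS5, CENPF and KIF2C fall in both lines, CDKN1A rises in both, PHGDH and DDIT4 each move in 1 line, STC1 falls in LNCaP and rises in C4-2, IGFBP3 does the reverse, and ID2 rises in LNCaP.

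Genes of sterol and fatty acid synthesis differed in the same direction as the ATF4 genes. The median difference was 0.60 over the cholesterol list and 0.98 over the fatty acid list, and 0.36 and 1.15 after the GC correction. The cholesterol genes had a median change of −0.22 in LNCaP and 0.29 in C4-2. Of 21 of them 8 were called above and 0 below, beside 7.2% and 4.9% of all genes. That count was 4 without C4-2 shCSN5 replicate 1, 5 without C4-2 shCSN5 replicate 2 or either LNCaP scramble library, and 13 above with 2 below after the GC correction. INSIG1, which holds the sterol-sensing SREBP factors in the endoplasmic reticulum, fell from 93.9 and 95.5 CPM to 76.5 and 71.8 in LNCaP and rose from 111 and 93.7 CPM to 175 and 185 in C4-2. Its difference was 1.17 ± 0.15 (edgeR adjusted p = 0.0026). EBP, a sterol isomerase, fell in both lines, by 1.52 on the log2 scale in LNCaP and by 0.53 in C4-2.

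Of 12 fatty acid genes 6 were called above and 0 below, beside 7.2% and 4.9% of all genes. After the GC correction 9 were above and 1 below. The highest difference, 3.4 ± 0.44, was that of THRSP, a regulator of lipid synthesis at 0.181 to 1.78 CPM. FADS2, a desaturase of polyunsaturated fatty acids, had 1220 and 1270 CPM with scramble and 230 and 305 with shCSN5 in LNCaP, and 624 and 737 with scramble and 720 and 650 with shCSN5 in C4-2. It fell to 21.5% in LNCaP, its C4-2 libraries overlapped, and the difference was 2.23 ± 0.21 (edgeR adjusted p = 0.00079). FADS1, its partner desaturase, fell further in LNCaP, with a difference of 1.35 ± 0.14. SCD, the stearoyl desaturase, rose in both lines, 1.38-fold in LNCaP and 2.92-fold in C4-2, with a difference of 1.08 ± 0.16. FASN, the fatty acid synthase, gave no call (1.59 ± 0.74), with LNCaP shCSN5 libraries at 241 and 826 CPM. It was called without LNCaP shCSN5 replicate 2 (2.73, adjusted p = 0.0058) and after the GC correction.

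The genes whose C4-2 change lay below the LNCaP change were led by IGFBP3, the main binding protein of insulin-like growth factors. It had 28.3 and 27.4 CPM with scramble and 217 and 194 with shCSN5 in LNCaP, and 122 and 118 with scramble and 37.0 and 39.6 with shCSN5 in C4-2. The changes were 2.88 ± 0.10 in LNCaP and −1.65 ± 0.10 in C4-2, and the gene was picked for its large difference and called changes of opposite sign. Its difference of −4.53 ± 0.14 (edgeR adjusted p = 1.9e-05) was the most negative among the named genes.

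On the list of TGF-beta, SMAD and YAP targets, 6 of 12 members were called below and 1 above, against 4.9% and 7.2% of all genes, and the counts were the same after the GC correction. The median change was 1.08 in LNCaP and −0.26 in C4-2. ID1 and ID2 encode inhibitors of basic helix-loop-helix factors. ID1 had 22.5 and 20.9 CPM with scramble and 122 and 209 with shCSN5 in LNCaP, and 34.5 and 38.4 with scramble and 25.3 and 24.7 with shCSN5 in C4-2. ID2 went from 9.22 and 9.86 CPM to 82.1 and 81.6 in LNCaP and from 27.8 and 27.0 CPM to 33.2 and 33.5 in C4-2. The rise in LNCaP was called for both. In C4-2 neither the change of ID1 (−0.55 ± 0.23) nor that of ID2 (0.29 ± 0.097) was called. The differences were −3.48 ± 0.32 and −2.81 ± 0.14 (edgeR adjusted p = 0.00081 and 0.00018). SMAD7, the feedback inhibitor of the pathway, rose from 8.21 and 8.69 CPM to 18.9 and 20.3 in LNCaP and fell from 8.22 and 8.50 CPM to 6.69 and 5.41 in C4-2.

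TGFB2, a ligand, rose from 0.456 and 0.319 CPM to 3.15 and 2.70 in LNCaP and fell from 6.33 and 5.16 CPM to 2.16 and 2.63 in C4-2, a difference of −4.15 ± 0.33 (edgeR adjusted p = 0.00041). AJUBA, a LIM-domain protein of the Hippo pathway, was the member called above (1.17 ± 0.17). Of 8 tested mesenchymal genes 2 were called below and 1 above, beside 4.9% and 7.2% of all genes (3 and 1 members after the GC correction). The median difference was 0.06, and −0.23 after the GC correction. VIM (vimentin) had 5.93 and 6.56 CPM with scramble and 23.8 and 24.3 with shCSN5 in LNCaP, and 15.2 and 16.5 with scramble and 13.8 and 15 with shCSN5 in C4-2. SNAI2, a repressor of epithelial genes, fell from 10.5 CPM in both scramble libraries to 3.28 and 2.86 in C4-2, and its LNCaP change was not called (−0.34 ± 0.17). The change of VIM was called in LNCaP alone and that of SNAI2 in C4-2 alone, with differences of −2.09 ± 0.18 and −1.43 ± 0.22 (edgeR adjusted p = 0.00052 and 0.0065). FN1 (fibronectin) was the member above, at 0.67 ± 0.12 (edgeR adjusted p = 0.012). It fell to 40.1% in LNCaP and 63.7% in C4-2, and its call ended without either LNCaP scramble library. Of 16 genes of epithelial adhesion and tight junctions, 0 differences were called by edgeR in either direction, beside 7.2% above and 4.9% below over all genes. After the GC correction 3 were above and 2 below.

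Most histone genes, which package newly made DNA, had a C4-2 change below the LNCaP change. Of 9 tested members 6 were called below and 1 above, beside 4.9% and 7.2% of all genes (6 and 2 members after the GC correction). The median difference was −1.02. H2AC6 had 33.4 and 34.7 CPM with scramble and 125 and 118 with shCSN5 in LNCaP, and 94.7 and 90.1 with scramble and 71.1 and 72.8 with shCSN5 in C4-2. H2BC12 had 112 and 115 CPM with scramble and 272 and 316 with shCSN5 in LNCaP, and 231 and 261 with scramble and 172 and 166 with shCSN5 in C4-2. Both rose in LNCaP and fell in C4-2, with differences of −2.20 ± 0.12 and −1.92 ± 0.15 (edgeR adjusted p = 0.0002 and 0.00035). These genes have near-identical copies among which reads could be split, and how the counting treated them is not given in the sources used here, so their values are uncertain.

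NF-kB regulates genes of inflammation and survival. Of 19 tested members of its target list 15 rose and 2 fell in LNCaP, and 9 rose and 0 fell in C4-2. Over all genes 21.7% rose and 23.1% fell in LNCaP, and 14.5% rose and 12.9% fell in C4-2. The difference was called below for 3 members and above for 1, beside 4.9% and 7.2% of all genes, and the median difference was 0.12. NFKBIA (ENSG00000100906), the inhibitor whose promoter is shown above, had 101 and 104 CPM with scramble and 188 and 186 with shCSN5 in LNCaP. In C4-2 it had 93.9 and 96.8 CPM with scramble and 88.2 and 86.9 with shCSN5. The rise of 1.82-fold in LNCaP was called, the C4-2 change of −0.12 ± 0.08 was not, and the difference was −0.99 ± 0.11 (edgeR adjusted p = 0.0017). NFKB1, a subunit of the factor, had 75.5 and 75.0 CPM with scramble and 154 and 143 with shCSN5 in LNCaP, and 50.3 and 49.3 with scramble and 45.3 and 48.9 with shCSN5 in C4-2. TNFAIP3, the A20 feedback enzyme, was the third member below (−1.40), with a call that ended with limma voom, without each of the C4-2 libraries in turn and without LNCaP scramble replicate 2. BIRC3, an inhibitor of apoptosis, was the one above, and its call ended without either C4-2 shCSN5 or either LNCaP scramble library. After the GC correction 2 were above and 7 below, and the median difference was −0.20.

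Beyond the list, FOSL2, an AP-1 subunit, rose 2.39-fold in LNCaP and was at 0.98 of its scramble level in C4-2, with a difference of −1.29 ± 0.14 (edgeR adjusted p = 0.0016). B2M, the light chain of class I antigen presentation, rose from 178 and 171 CPM to 380 and 305 in LNCaP and fell from 293 and 254 CPM to 202 and 213 in C4-2. TNFRSF21, a death receptor, rose 8.39-fold in LNCaP and 2.46-fold in C4-2. PTGER4, a prostaglandin receptor, and LPXN, a focal adhesion protein, had differences of −3.25 ± 0.25 and −3.20 ± 0.20 (edgeR adjusted p = 0.00036 and 0.00023).

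Androgen-induced genes differed in both directions, more of them below. Of 28 members 10 were called below and 3 above, beside 4.9% and 7.2% of all genes. The median change was −0.32 in LNCaP and −0.31 in C4-2. The count below was 6 without C4-2 shCSN5 replicate 1 and without either LNCaP scramble library, and after the GC correction 13 were below and 8 above. The calls above were 5 without either LNCaP shCSN5 library. KLK3, which encodes prostate-specific antigen, had 3378 and 3478 CPM with scramble and 2621 and 2881 with shCSN5 in LNCaP, and 3376 and 3735 with scramble and 3112 and 2930 with shCSN5 in C4-2. Its difference was 0.08 ± 0.13 (edgeR adjusted p = 0.73).

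FKBP5, a co-chaperone of steroid receptors, had 180 and 183 CPM with scramble and 203 and 164 with shCSN5 in LNCaP, and 737 and 651 with scramble and 252 and 267 with shCSN5 in C4-2. It fell to 37.4% in C4-2, its LNCaP libraries overlapped, and the difference was −1.43 ± 0.17 (edgeR adjusted p = 0.002). NCAPD3, a condensin subunit, was like it, with C4-2 levels of 174 and 170 CPM with scramble and 59.3 and 64.9 with shCSN5, and a difference of −1.33 ± 0.13. ELL2, an elongation factor, rose from 98.7 and 98.5 CPM to 193 and 155 in LNCaP and fell from 390 and 336 CPM to 199 and 204 in C4-2. STEAP4, a metalloreductase, rose 6.92-fold in LNCaP and was at 0.992 of its scramble level in C4-2. NDRG1, a stress-responsive protein, fell to 53% in C4-2 without a call in LNCaP.

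Above 0 stood TSC22D3, a leucine zipper protein that glucocorticoids also induce, with 56.7 and 53.7 CPM to 43.4 and 38.9 in LNCaP and 56.9 and 54.3 CPM to 142 and 140 in C4-2. CAMKK2, a calcium-dependent kinase, fell from 135 CPM in both scramble libraries to 94.1 and 94.6 in LNCaP and rose from 95.6 and 102 CPM to 125 and 121 in C4-2. The differences were 1.76 ± 0.14 and 0.83 ± 0.11 (edgeR adjusted p = 0.00036 and 0.0039). Of 10 tested genes on the list of androgen-repressed genes 6 were called above and 1 below, beside 7.2% and 4.9% of all genes. The counts were the same after the GC correction, but UBE2C and CDC20 among the 6 are mitotic genes that fell in both lines. CAMK2N1, an inhibitor of a calcium-dependent kinase, rose from 87.1 and 88.6 CPM to 404 and 342 in LNCaP and from 5.11 and 4.79 CPM to 195 and 187 in C4-2, a rise of 4.24-fold and 38.5-fold. DDC, a decarboxylase of monoamine synthesis, fell from 31.5 and 29.4 CPM to 11.7 and 10.7 in LNCaP and rose from 15 and 13.5 CPM to 26 and 26.6 in C4-2. KLF5, a factor of basal and luminal epithelium, was the member below, with a rise of 5.45-fold in LNCaP and a C4-2 change of −0.17 ± 0.14.

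Further genes with opposite calls in the lines were led by STC1, a secreted glycoprotein hormone. It had 2.90 and 4.01 CPM with scramble and 0.580 and 0.432 with shCSN5 in LNCaP, and 5.80 and 5.12 with scramble and 17.5 and 17 with shCSN5 in C4-2. Its difference of 4.41 ± 0.31 (edgeR adjusted p = 0.00027) was the most positive among the named genes. SLC22A3, an organic cation transporter, fell from 461 and 460 CPM to 271 and 231 in LNCaP and rose from 5.64 and 4.13 CPM to 26.5 and 30.9 in C4-2. RHOU, a small GTPase, rose from 42.5 and 38.9 CPM to 172 and 152 in LNCaP and fell from 227 and 197 CPM to 100 and 105 in C4-2. LAMA1, a laminin chain, had a difference of 2.51 ± 0.19 and AKAP12, a kinase anchor, one of −2.82 ± 0.31 (edgeR adjusted p = 0.00034 and 0.0016). All of these genes were picked for called changes of opposite sign, so the separation of their scramble and shCSN5 libraries follows from the choice.

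Other genes changed with a call in C4-2 alone or by unequal amounts in one direction. TMEM100, a small membrane protein, had 22.3 and 18.5 CPM with scramble and 2.98 and 2.63 with shCSN5 in C4-2, and 0.319 to 0.580 CPM in the 4 LNCaP libraries. The difference was −3.39 ± 0.34 (edgeR adjusted p = 0.0011), with low counts in LNCaP. EGLN3, an oxygen-sensing prolyl hydroxylase, rose from 25.6 and 26.4 CPM to 897 and 807 in LNCaP and from 7.42 and 6.56 CPM to 49.4 and 50.1 in C4-2, a rise of 32.8-fold and 7.10-fold. MMP16, a membrane metalloproteinase, fell to 8.79% in LNCaP and to 53.5% in C4-2. LAMA3, a laminin-332 chain, rose 3.36-fold in LNCaP and 1.45-fold in C4-2.

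In lists of housekeeping machinery the counts of calls changed with the libraries used. Over all genes tested 7.2% were called above and 4.9% below. Of 45 cytosolic ribosomal protein genes 6 were called above and 0 below, with 0 above without either LNCaP scramble library, 2 and 3 without C4-2 shCSN5 replicate 1 and 2, 12 without LNCaP shCSN5 replicate 1 and 22 without LNCaP shCSN5 replicate 2. These genes have many near-identical copies, so their values are uncertain. Of 31 proteasome genes 6 were called above and 0 below, with 0 above without LNCaP scramble replicate 1, 1 without LNCaP scramble replicate 2 or either C4-2 shCSN5 library, 3 without C4-2 scramble replicate 1, 11 without LNCaP shCSN5 replicate 1 and 10 without LNCaP shCSN5 replicate 2. DESeq2 called 2 of each list above, and after the GC correction 16 ribosomal genes were above and 5 below, and 12 proteasome genes above and 7 below. Of the 10 COP9 signalosome genes COPS5, COPS6 and COPS2 were called above, and 0 of them without either LNCaP scramble or either C4-2 shCSN5 library, and 5 genes without LNCaP shCSN5 replicate 2. The call of COPS6 also ended with DESeq2, and after the GC correction 3 of the 10 were above and 3 below. COPS6 fell to 64.3% in LNCaP and COPS2 to 62.3%, and neither change was called in C4-2.

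**Figure D5:**
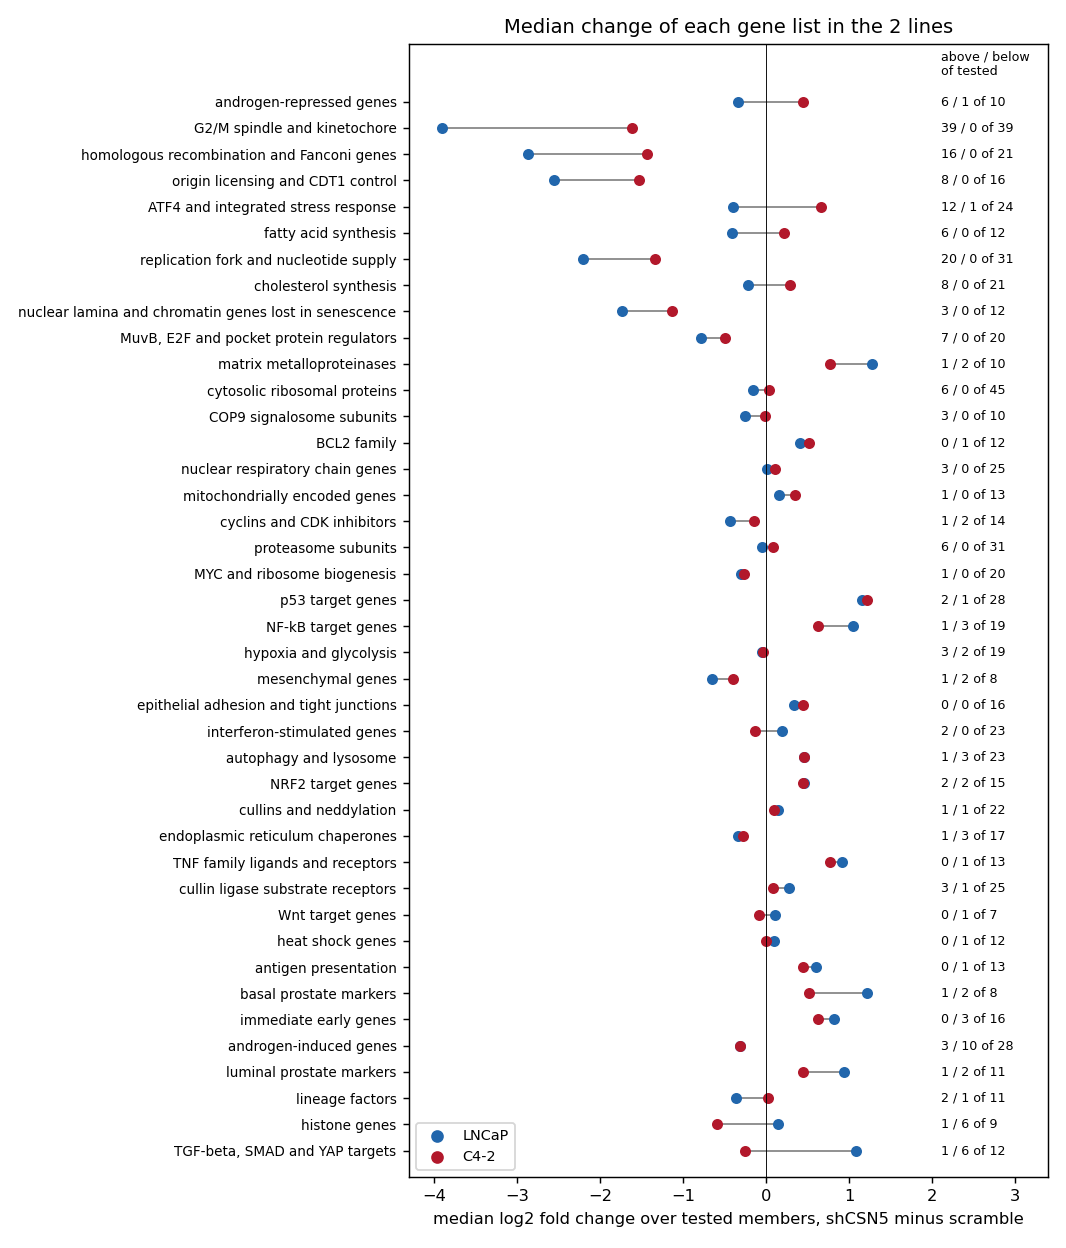
Median log2 change with shCSN5 over the tested members of each gene list with at least 7 of them, in LNCaP (blue) and C4-2 (red), ordered by the difference; at the right, members whose difference was called above and below. The mitotic list has the widest gap among the lists of genes that fell (−3.90 and −1.62), the p53 list nearly none (1.15 and 1.22), and the ATF4 list lies on both sides of 0 (−0.40 and 0.66).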

How the data were processed

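RNA was measured in 8 libraries of LNCaP and C4-2 with a scramble shRNA or shCSN5. The authors deposited whole-number read counts per Ensembl gene. The series' design text and the submitters' processing notes name Partek Flow, with no version. Aligner, genome build, annotation and strand were not given in the sources used here, so overlapping and antisense genes cannot be told apart. The tables of projects J and L were joined by identifier (57445 in both, of which 89.6% matched a gene name). C4-2 libraries of the inhibitor experiment were not used.

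The gene lists, members and named genes were chosen with earlier results of these data known. Named genes are COPS5, the largest differences, the largest opposite and shared changes at a mean of at least 5 CPM, and up to 2 of smallest p in each direction of each list, plus genes added after their values were seen. The 8 libraries were fitted in R 4.3.3 with edgeR 4.0.16 (quasi-likelihood F test, TMM, filterByExpr with a minimum count of 10, 1 mean per group, 4 residual degrees of freedom) and Benjamini-Hochberg adjustment at 0.05 over 15801 genes. Each SE was computed as |log2 change| / √F. Alternatives were total-count scaling, DESeq2 1.42.0, no filter, limma 3.58.1 voom with quality weights, all 16 shRNA libraries, a replicate block, each library left out and, chosen after seeing the data, a GC correction (GC was known for 97.5% of genes tested). Simulated differences of 2 log2 units were recovered for 75% of 100 genes, and of 1 log2 unit for 14% of 100, with 8 of 15601 unchanged genes called. The simulated counts were drawn for each gene alone, without the GC trends of the real libraries. Apart from the planted differences, scramble and shCSN5 libraries of a line had the same mean. The planted differences were far fewer than the real calls, so these values need not hold for the real data. Figures were drawn with Python 3.11.15 and matplotlib 3.10.9.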

Additional observations from a re-analysis of the deposited data

Results flagged for a closer look

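A difference between the lines, tested as the interaction term of edgeR's quasi-likelihood fit (adjusted p under 0.05), together with called changes of opposite sign in LNCaP and C4-2, was found for 170 genes, of which the named ones follow with the log2 difference, C4-2 minus LNCaP. The genes that rose in C4-2 and fell in LNCaP were STC1 (4.41), GLDC (3.97), SLC22A3 (3.42), BCAT1, a branched-chain aminotransferase (3.12), LAMA1 (2.51), DDC (2.32), TSC22D3 (1.76), SLC7A11 (1.63), ASNS (1.53), MT-ND6 (1.33), TRIB3 (1.21), AJUBA (1.17), INSIG1 (1.17), the integrin ITGA6 (1.09), CAMKK2 (0.83), ATF4 (0.80) and PGD of the pentose phosphate pathway (0.65).

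The genes that fell in C4-2 and rose in LNCaP were IGFBP3 (−4.53), TGFB2 (−4.15), PTGER4 (−3.25), RHOU (−3.03), the adrenergic receptor ADRA2A (−2.88), AKAP12 (−2.82), PLK2 (−2.65), H2AC6 (−2.20), H2BC12 (−1.92), the cytokine signalling inhibitor SOCS2 (−1.70), SMAD7 (−1.68), ELL2 (−1.67) and B2M (−1.37). BCAT1 had 3.77 without LNCaP shCSN5 replicate 2. The call of ATF4 ended after the GC correction. The call of MT-ND6 ended without C4-2 scramble replicate 2, either C4-2 shCSN5 library or either LNCaP scramble library (adjusted p from 0.051 to 0.09), and it is encoded on the other strand than most mitochondrial genes, which an unstranded count cannot separate. The call of ITGA6 ended without either LNCaP scramble library (adjusted p = 0.069 and 0.068), and that of PGD without either of these or C4-2 shCSN5 replicate 1. Whether the GC content of transcripts or the spread of the LNCaP shCSN5 libraries has a part in any of these was not tested beyond those values.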

How the results depend on the processing

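No called gene changed sign in any alternative. Of 134 named genes with a called difference 85 kept it in every alternative, and 49 lost it in at least 1. When the spread came from all 16 shRNA libraries, 3103 differences were called, 1428 of them below, with 264 of opposite and 989 of the same sign in the lines, and DESeq2 gave 80 of opposite sign. After the GC correction, chosen after seeing the data, 5219 were called (2576 above, 2643 below, 627 of opposite and 2132 of the same sign), with 7695 changes in C4-2, and 1824 of the 1913 calls remained. Replicate numbers did not pair the libraries (correlation of deviations −0.03 in LNCaP and −0.29 in C4-2). With the replicate block 831 differences were called (530 above, 301 below, 65 of opposite and 296 of the same sign), with 2844 changes in C4-2 and 6 androgen-induced genes below, and 39 of the 149 named genes had no call that they had without it, among them COPS5, COPS6, COPS2, ATF3, BIRC3, TNFAIP3, DDB2, SESN2 and FN1. The block left 0 COP9, p53 or NF-kB genes above and 0 ATF4 genes below. With the pairing crossed in C4-2, 1823 differences, 7197 LNCaP changes and 4276 C4-2 changes were called. With 1 library left out the difference was called for 638 to 4522 genes (425 to 2485 above, 213 to 2037 below), LNCaP's change for 4243 to 8540 and C4-2's for 2201 to 6041, with 51 to 338 of opposite and 257 to 1248 of the same sign. The lists then held 37 to 39 mitotic, 8 to 10 licensing, 11 to 22 replication, 11 to 19 recombination and 8 to 16 ATF4 genes above and 6 to 11 androgen-induced genes below. Where a fit has 1 library in a group, that library is assumed to vary like the others. The share above was between 49.4% and 66.6%. At 2 libraries a group a missing call does not show equal change. Differences of 1 log2 unit were mostly not recovered in the simulation, which held far fewer differences than were called in the real data.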
